A study of Homo sapiens with 8 samples.

Results

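Matrix metalloproteinases and their tissue inhibitors were followed here through 10 genes of the 57992 in the count table: MMP1, MMP2, MMP8, MMP9, MMP14, MMP19, MMP25, TIMP1, TIMP2 and TIMP3. They were picked by symbol with their levels in these libraries known, from the comparisons of treated with vehicle cells and from the vehicle levels of the lines, so their differences are given as descriptions, without p-values, although the genes took part in the fit over all genes. The study treated KG1A and U937, both established human lines used as models of acute myeloid leukaemia, and asked how such cells answer a disturbance of their deoxynucleotide supply. KG1A cells are immature and bear CD34, an antigen of stem and progenitor cells, while U937 cells resemble monoblasts. The groups were KG1A in PBS, KG1A in 10 mM dG, U937 in PBS and U937 in 10 mM dG, with 2 libraries each and 8 in all. PBS was the vehicle, and dG is the usual abbreviation of deoxyguanosine, which the labels do not spell out. RPMI medium with dialyzed serum was used for all cells, and no treatment time or genetic change is named in the labels.

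Matrix metalloproteinases are zinc endopeptidases that cut collagens, other matrix proteins, and many surface and secreted proteins. Most are made as inactive precursors whose propeptide blocks the zinc site until another protease removes it, and TIMPs then hold the active enzymes in check by filling the active site. Monocytes and macrophages secrete several of them, neutrophils store MMP8, MMP9 and MMP25 in granules, and the genes are known for moving with adhesion, migration and maturation of myeloid cells.

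Library totals ran from 21053724 to 31135338 counts. Levels below are in CPM, the usual scaled counts, with TMM factors for the libraries, and 1 count was worth 0.0314 to 0.0485 CPM. The labels do not say whether replicates were separate cultures, so a p-value here reflects spread among these libraries alone, part of which may be technical. CD34 stood at 931 CPM in KG1A in PBS and 1191 CPM in dG, and at 0.265 and 0.561 CPM in U937. A set of 6 progenitor markers, CD34 among them, summed to 954.7 to 955.5 CPM in KG1A in PBS and 1227 to 1234 CPM in dG. In U937 that set summed to 38.0 to 42.1 CPM in PBS, nearly all of it CD38, and to 33.7 to 36.1 CPM in dG. A set of 8 monoblast and primary granule markers summed to 0.173 to 0.274 CPM in KG1A in PBS and to 827 to 828 CPM in U937 in PBS, although MPO was close to absent in U937. In dG the monoblast set summed to 0.767 to 1.03 CPM in KG1A and to 1325 to 1343 CPM in U937, where PRTN3 went down from 197 to 96.9 CPM. A set of 9 monocyte and macrophage markers went from a sum of 24.3 to 26.6 CPM in U937 in PBS to 168.6 to 179 CPM in dG, and from 3.01 to 3.30 CPM to 18.0 to 20.1 CPM in KG1A. The integrin genes ITGAM and ITGAX carried most of that sum, with means of 13.9 and 7.17 CPM in U937 in PBS and 81.2 and 81.8 CPM in dG. CSF1R was level in U937 (1.63 and 1.44 CPM), CD14 lay at 0.509 CPM in PBS and 0.152 CPM in dG in KG1A, CD163 was at or near 0 and FCGR3A at 0. A set of 8 late neutrophil markers summed to 14.0 to 15.8 CPM in KG1A in PBS and 34.2 to 35.1 CPM in dG, and to 86.9 to 89.5 CPM and 109 to 110.4 CPM in U937. CSF3R made up most of it, CAMP went from 0.57 to 5.11 CPM in U937, and FCGR3B and PGLYRP1 were at 0. The part of these marker sets in the levels below was not tested. Summed epithelial markers stayed at or under 0.0867 CPM in every library. The mitochondrial share of counts was 9.12% to 9.83% in the PBS libraries and 7.93% to 8.30% in the dG libraries.

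MMP1 encodes interstitial collagenase, a secreted enzyme that opens the triple helix of fibrillar collagens (ENSG00000196611, GRCh38 chr11:102789920-102798160, minus strand). In U937 it lay at 11.6 and 10.6 CPM in PBS and at 527 and 499.6 CPM in dG. Both dG libraries were far above both PBS libraries, and the log2 fold change was 5.53 ± 0.05 (standard error here and below), the 25th largest rise in U937 among the 18314 genes tested. In KG1A the gene held 0 and 2 counts in PBS and 1 and 0 counts in dG, so no difference was detectable at this depth. By level per exon length, MMP1 went from place 7304 to place 81 among all 57992 genes in U937.

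MMP8 encodes neutrophil collagenase, which cuts the same kind of collagens and is known from neutrophil granules (ENSG00000118113, chr11:102711795-102727050, minus strand). It lay at 5.46 and 5.14 CPM in U937 in PBS and at 34.7 and 32.1 CPM in dG, with no overlap and a log2 fold change of 2.65 ± 0.10. None of the 4 KG1A libraries held a read of MMP8. A count of 0 over the KG1A PBS libraries allows a level of up to 0.0574 CPM at 3 counts, and over the dG libraries up to 0.0567 CPM; like the counting intervals given later, these cover counting error only.

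MMP1 and MMP8 belong to a run of 9 MMP genes on chromosome 11, all on the minus strand. The MMP8 start lies 71.1 kb from the MMP1 start. Between them stands MMP10, stromelysin 2, whose start is 17.5 kb from that of MMP1 and which held 0 counts in U937 in PBS and 3 in dG. On the other side MMP3, stromelysin 1, starts 45.6 kb away and held 0 and 1 counts. MMP12, MMP13, MMP20 and MMP27 held at most 4 counts in any group of 2 libraries. MMP7, matrilysin, at the far end of the run, was the only one of the 9 with more than 3 counts in KG1A: 269 and 358 counts in PBS, and 399 and 329 in dG. In U937 it held 6 and 5 counts in PBS and 17 and 16 in dG. Within this run the U937 reads of both treatments therefore fell almost wholly on MMP1 and MMP8, and those of KG1A on MMP7.

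**Figure D1:**
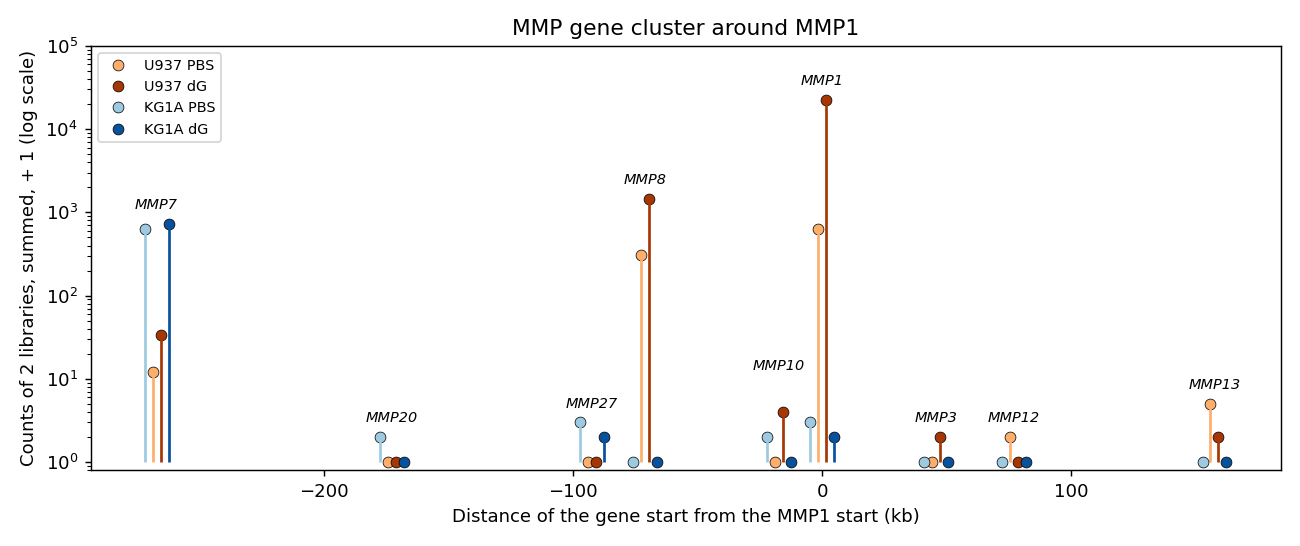
Counts of the 9 MMP genes of the chromosome 11 run, summed over the 2 libraries of each group, plus 1, on a log axis, against the distance of each gene's start from that of MMP1 in kb. MMP1 and MMP8 stand out in U937, with 22520 and 1466 counts in dG, and MMP7 in KG1A.

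Promoter sequence was at hand for 4 of the 10 genes, from RefSeq on GRCh38.p14, as the 250 bases before the RefSeq start. Positions in this paragraph count from the RefSeq start, which is not the start of the gene span given for each member. By those spans, the MMP8 window lies inside the gene, and the windows of TIMP1, MMP14 and TIMP3 run past the gene start. A pair is shown, from a gene without reads in KG1A and from one read in all 8 libraries. The MMP8 window (chr11:102724955-102725204, minus strand) has 36.4% G or C and 0 CpG pairs. Capitals mark the TATA box letters TATAAA, found 110 to 105 bases before the start. The TIMP1 window (chrX:47582186-47582435, plus strand) has 64.8% G or C and 12 CpG pairs. Its capitals mark the GC box letters GGGCGG, read on the opposite strand, at 135 to 130 and 45 to 40 bases before the start.
MMP8: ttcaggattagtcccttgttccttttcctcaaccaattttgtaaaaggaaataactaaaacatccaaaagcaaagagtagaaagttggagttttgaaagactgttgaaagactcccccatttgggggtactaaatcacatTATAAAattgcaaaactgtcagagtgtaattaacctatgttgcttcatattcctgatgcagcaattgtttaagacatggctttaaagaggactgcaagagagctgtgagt
TIMP1: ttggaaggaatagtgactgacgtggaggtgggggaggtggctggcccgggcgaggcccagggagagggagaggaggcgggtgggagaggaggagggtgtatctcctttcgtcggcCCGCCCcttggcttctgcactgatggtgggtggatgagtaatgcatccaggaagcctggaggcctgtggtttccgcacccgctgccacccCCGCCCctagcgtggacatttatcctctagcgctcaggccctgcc
On both strands, TATAAA was found in 10.7% and GGGCGG in 42.6% of 35116 promoter windows of the same length. The AP-1 letters TGAGTCA were in 4.2% of them and in none of the 4 windows of MMP8, MMP14, TIMP1 and TIMP3. The MMP14 window held 1 GC box. That of TIMP3, which like MMP8 had no read in KG1A, held 5, with 72.4% G or C and 26 CpG pairs. The matches do not overlap each other, and a match or its absence describes these letters only.

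The gelatinases MMP2 and MMP9 cut denatured collagen and the collagen of basement membranes. MMP2 (ENSG00000087245, chr16:55389700-55506691, plus strand) lay at 46.8 and 49.0 CPM in U937 in PBS and at 108.4 and 104 CPM in dG, a log2 fold change of 1.15 ± 0.05. MMP9 (ENSG00000100985, chr20:46008908-46016561, plus strand) lay at 10.9 and 9.89 CPM in PBS and at 46.0 and 46.4 CPM in dG, a log2 fold change of 2.15 ± 0.08. For both genes the dG libraries of U937 stood above the PBS libraries. In KG1A, MMP2 held 1 count in PBS and 2 in dG over both libraries, and MMP9 held 0 and 3. All 3 MMP9 reads were in the second dG library, and without the first one MMP9 was called higher in KG1A.

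MMP14 encodes a transmembrane enzyme that works at the cell surface and, with TIMP2 as its bridge, activates the precursor of MMP2 (ENSG00000157227, chr14:22836557-22849027, plus strand). It was low in every library: 0.824 and 0.547 CPM in KG1A in PBS, 0.782 and 0.606 CPM in KG1A in dG, 0.628 and 0.478 CPM in U937 in PBS, and 1.08 and 1.26 CPM in U937 in dG. The KG1A groups overlapped, with a log2 fold change of 0.06 ± 0.35. The U937 groups did not, with 1.05 ± 0.33. These U937 values rest on 32 and 51 counts, and without the second U937 PBS library the log2 fold change was 0.87 and no longer passed the threshold.

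MMP25 encodes a leukocyte enzyme held at the membrane by a lipid anchor (ENSG00000008516, chr16:3046681-3060726, plus strand). It was the 1 MMP gene of the 7 that was higher in dG in KG1A, with 0.867 and 1.20 CPM in PBS and 3.16 and 2.38 CPM in dG, a log2 fold change of 1.41 ± 0.22. In U937 it lay at 43.5 and 46.7 CPM in PBS and at 43.5 and 44.3 CPM in dG. The U937 groups overlapped, and the log2 fold change was -0.04 ± 0.06. The U937 effect minus the KG1A effect was -1.44 ± 0.23, the opposite sign to that of TIMP1 below. On log2(RPKM + 1), a scale that damps low genes, the KG1A change was 0.40. Its antisense neighbour is described further on.

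MMP19 encodes a secreted enzyme that cuts basement membrane proteins (ENSG00000123342, chr12:55835433-55842966, minus strand). It lay at 0.251 and 0.239 CPM in U937 in PBS and at 1.68 and 1.70 CPM in dG, a log2 fold change of 2.76 ± 0.36 from 14 and 74 counts. The groups did not overlap, and on log2(RPKM + 1) the change was 0.38. KG1A held 0 counts of MMP19 in PBS and 1 in dG.

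TIMP1, a secreted inhibitor that also forms a complex with the MMP9 precursor, was the member with reads in depth in both lines (ENSG00000102265, chrX:47582313-47586789, plus strand). It lay at 36.9 and 41.3 CPM in KG1A in PBS and at 68.1 and 65.9 CPM in dG. In U937 it lay at 72.0 and 69.6 CPM in PBS and at 161.5 and 153 CPM in dG. The dG libraries were above the PBS libraries in both lines, by 0.77 ± 0.05 in KG1A and 1.15 ± 0.05 in U937 on the log2 scale, and the difference between these effects was 0.38 ± 0.07. TIMP1 in KG1A in dG came to about the level of U937 in PBS.

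TIMP2 inhibits MMPs and also takes part in the surface activation of MMP2 (ENSG00000035862, chr17:78852977-78925387, minus strand). In U937 it lay at 62.3 and 59.8 CPM in PBS and at 122 and 120.2 CPM in dG, without overlap, a log2 fold change of 0.99 ± 0.05. KG1A held 1 count in PBS and 2 in dG. TIMP3, the inhibitor that binds to the matrix itself (ENSG00000100234, chr22:32801701-32863043, plus strand), held 3 counts in 1 U937 PBS library and 0 in the other 7. It was the 1 member too low to be tested. In U937, then, TIMP1 and TIMP2 were higher in dG while TIMP3 stayed at or under 3 counts.

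**Figure D2:**
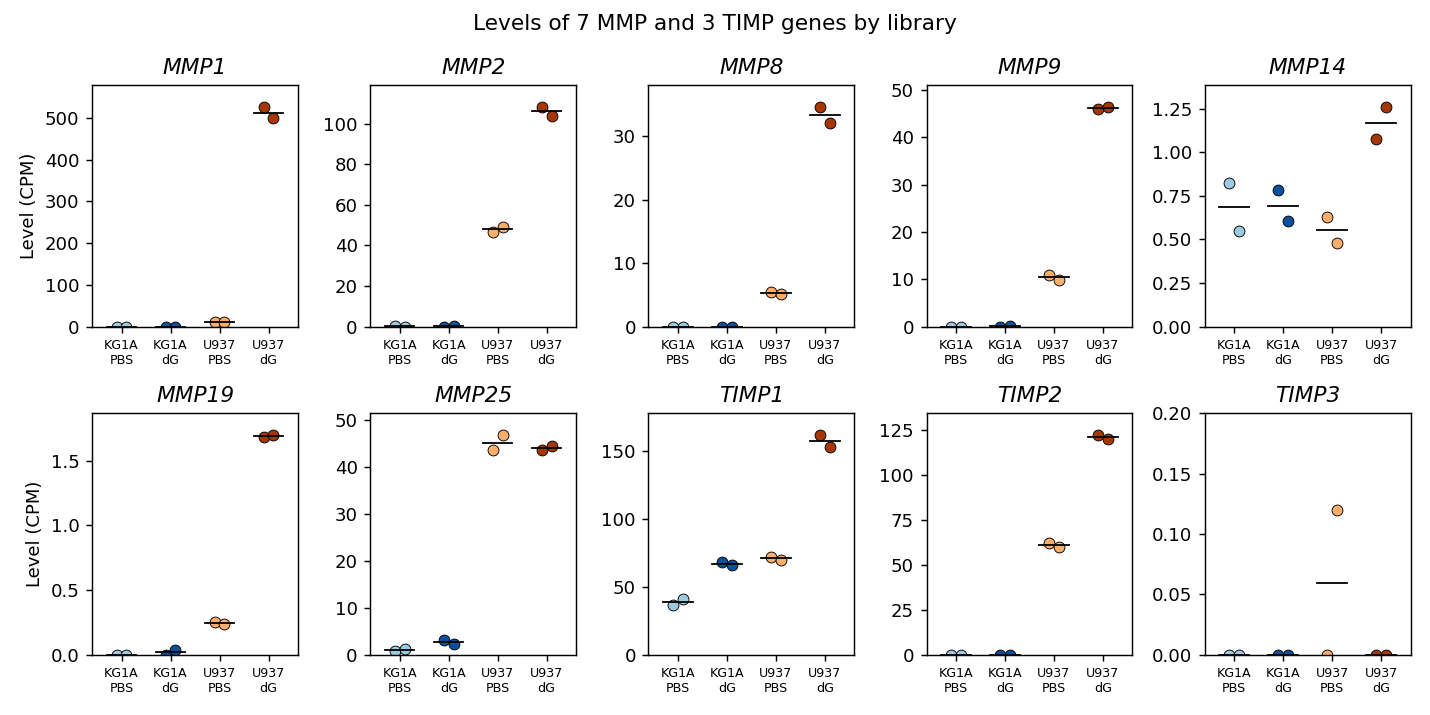
Levels in CPM of the 10 genes in each library, with a point for each library, a line at the group mean and a linear axis from 0 in each panel. MMP1 goes from a mean of 11.1 to 513 CPM in U937, MMP25 is level in U937, and TIMP1 is higher in dG in both lines.

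Of the 9 members tested, 8 were called higher in dG in U937, against 32.4% of all genes called higher there (31.5% lower, 64.0% in either direction), at an adjusted p under 0.05 by edgeR's quasi-likelihood test. The median log2 fold change of the 9 was 1.15 in U937, and that of all genes tested was 0.00. In KG1A, MMP25 and TIMP1 were called higher, against 29.6% of all genes (19.6% were lower and 49.1% called in either direction). That background was 5413 genes higher and 3581 lower, and it became 4085 and 4202 with limma on log2(RPKM + 1), and 4032 and 4026 with a pseudocount of 0.1. Libraries did not overlap and dG was above for 8 members in U937 and 2 in KG1A, against 39.2% and 40.6% of genes. For dG below, which held for no member, the shares were 39.8% and 29.6%. Since these contrasts chose the members, nothing is read from the counts. Members with reads almost only in U937 could pass the filter on low counts only through that line.

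A difference in effect between the lines was called by the same test for MMP1 and TIMP1 (larger in U937) and MMP25 (smaller), against 44.1% of all genes (17.6% higher and 26.4% lower in U937). For MMP1 that call rests on 3 KG1A reads and was lost without the second KG1A PBS library. On log2(RPKM + 1), 8 members were called larger in U937. The background of 3230 higher and 4841 lower became 4021 and 3898 with DESeq2 size factors, 4077 and 3490 without a filter, and 5262 and 4204 on log2(RPKM + 1).

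In PBS the lines stood far apart for most members. Over both libraries, MMP1 held 634 counts in U937 and 2 in KG1A, which is 291-fold higher per scaled count (exact 95% interval 80.3 to 2409). MMP2 was 2498-fold higher (448 to 98700) and TIMP2 3202-fold higher (574 to 126500), each against 1 count in KG1A. Against groups without a read, MMP8 was at least 92.8-fold higher, MMP9 at least 182-fold and MMP19 at least 4.29-fold, with the floor of 3 counts per group. MMP25 was higher in U937 by 5.41 ± 0.12 and TIMP1 by 0.85 ± 0.05 on the log2 scale. MMP14 alone of the 9 tested members overlapped between the lines, at -0.25 ± 0.36. In PBS, 8 members were called higher in U937, against 41.4% of all genes (40.8% were lower and 82.3% called in either direction). Bulk libraries do not tell fewer cells of a type from less RNA per cell.

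The few KG1A reads of these genes were set beside reads of other U937 genes. For 7 genes with at least 200 CPM in U937 in PBS and a mean under 0.5 CPM over the KG1A libraries, KG1A held 11 and 17 reads in PBS and 35 and 27 in dG, 0.0288% to 0.0752% of their U937 PBS level. In the KG1A libraries with reads, MMP1 stood at 0.618% and 0.321% of its U937 PBS level and MMP9 at 1.17%, from 1 to 3 reads a library. MMP2 stood at 0.0905% and 0.169% and TIMP2 at 0.071% and 0.132%. The KG1A libraries left out here stood at 0% for the gene, while the shares of the 7 genes cover every KG1A library. The 7 genes were also picked for a low KG1A level, so the member shares cannot be set directly against theirs. Whether such reads came from KG1A cells was not tested.

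Levels can be compared between genes only per exon length, for which the authors' RPKM (reads per kilobase of exon, scaled to library size) was used. In U937 in PBS, TIMP1 led the members at 45.3 ± 1.49 RPKM (mean ± SD, n = 2). Next came MMP25 at 10.8 ± 0.433 and TIMP2 at 10.7 ± 0.413, which did not differ beyond their spread, and MMP2 at 9.56 ± 0.227. MMP1 at 5.54 ± 0.414 and MMP9 at 4.38 ± 0.342 followed, then MMP8 at 1.52 ± 0.0794, and MMP14, MMP19 and TIMP3 lay under 0.2 RPKM. In dG the order was another: MMP1 led at 267.6 ± 12.6 RPKM, above TIMP1 at 104.8 ± 4.99. MMP2 at 22.1 ± 0.865 and TIMP2 at 22.1 ± 0.479 lay together, with MMP9 close by at 20.3 ± 0.051. MMP25 at 10.9 ± 0.0419 and MMP8 at 9.98 ± 0.635 were the last above 1 RPKM. In KG1A, TIMP1 was the 1 member above 1 RPKM, at 25.8 ± 2.12 in PBS and 42.2 ± 1.07 in dG.

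Summed over 23 MMP genes (the 7 members and 16 others), U937 held 34.5 and 33.8 RPKM in PBS and 345 and 325 RPKM in dG. MMP1 made up 16.9% and 15.5% of that sum in PBS, behind MMP25 (30.3% and 32.7%) and MMP2 (27.3% and 28.7%). In dG it made up 80.2% and 79.7%. The U937 repertoire thus went from one spread over 4 enzymes to one mostly of a single collagenase. In KG1A the sum was 5.77 and 5.95 RPKM in PBS and 7.04 and 6.52 RPKM in dG, and MMP7 made up 88.3% and 90.3% in PBS and 84.2% and 85.0% in dG. MMP25 took 3.70% and 4.97% of the KG1A sum in PBS and 10.6% and 8.58% in dG.

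The 4 TIMP genes summed to 57.3 and 54.6 RPKM in U937 in PBS and to 131 and 123 RPKM in dG, with TIMP1 at 80.8% to 82.9% of the sum in the 4 libraries. The sum in KG1A was 24.3 and 27.3 RPKM in PBS and 42.9 and 41.4 RPKM in dG, nearly all of it TIMP1. TIMP mRNA per MMP mRNA, the ratio of the sums, differed by line. In U937 it was 1.66 and 1.62 in PBS and 0.380 and 0.379 in dG. In KG1A it was 4.22 and 4.59 in PBS and 6.09 and 6.36 in dG. The ratio was lower in dG in U937 and higher in dG in KG1A. These are mRNA levels, and neither protein nor enzyme activity was measured.

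**Figure D3:**
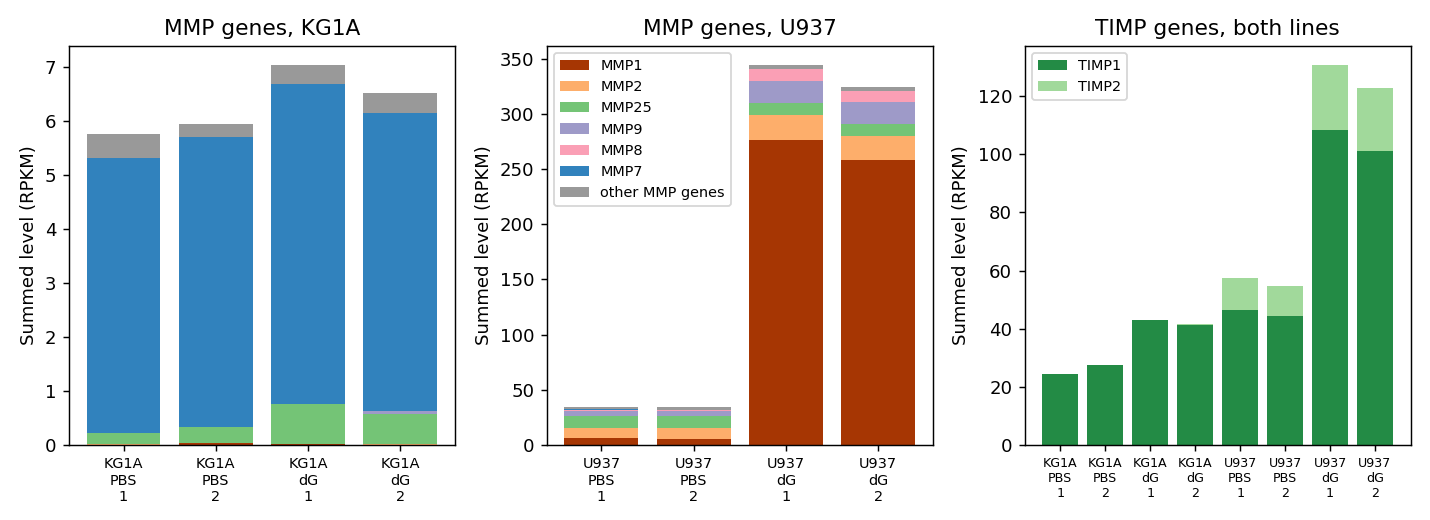
Stacked bars of deposited RPKM, with a bar for each library and linear axes from 0: MMP genes in KG1A, MMP genes in U937 on its own scale, and TIMP genes in both lines. MMP7 fills most of the KG1A bars, and MMP1 grows from 16.9% and 15.5% to 80.2% and 79.7% of the U937 bars.

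Several members overlap other annotated genes, and the strand setting of the read counting is not given in the sources used here, so their reads cannot be told apart with certainty. WTAPP1, a pseudogene on the opposite strand, spans all of MMP1 and shares 150 of its 1970 exon bases. It held 2 and 2 counts in U937 in PBS and 26 and 17 in dG, far under the 12221 and 10299 of MMP1, and rose by 3.71 ± 0.54 (edgeR adjusted p = 2.69e-07). MMP25-AS1 lies on the opposite strand of MMP25 and shares 1454 of its 4126 exon bases. In KG1A it held 491 and 498 counts in PBS and 616 and 565 in dG, more than MMP25 itself with 55 and 148 over both libraries, and rose by 0.23 ± 0.09 (edgeR adjusted p = 0.0242). The part of these reads in the KG1A level of MMP25 was not tested. TMEM198B shares 814 of the 4672 exon bases of MMP19 and held 221 and 197 counts in U937 in PBS and 193 and 207 in dG, more than MMP19 in both. RP11-465L10.10 shares 430 of the 2336 exon bases of MMP9 and held 10 to 14 counts in each U937 library. SYN1 and SYN3, which span TIMP1 and TIMP3, share no exon base with them. Along MMP2 and TIMP2, 7 more genes held at most 6 counts in any library.

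Outside the members, 16 more MMP genes were looked up, of which 4 were tested. MMP7 rose in U937, from 0.188 and 0.199 to 0.733 and 0.776 CPM (log2 fold change 1.94 ± 0.44, edgeR adjusted p = 2.23e-04), and lay at 11.7 and 12.3 CPM in KG1A in PBS and 14.2 and 13.3 CPM in dG (0.20 ± 0.09, adjusted p = 0.0718). MMP17, another enzyme with a lipid anchor, rose in U937 by 0.53 ± 0.16 (edgeR adjusted p = 0.00438), a call lost without the second U937 PBS library (adjusted p = 0.0774). MMP11, stromelysin 3, was called higher in KG1A from 9 and 24 counts (1.37 ± 0.51, edgeR adjusted p = 0.0238). That call was lost with DESeq2 (adjusted p = 0.295) and without any 1 of the KG1A or U937 dG libraries. RECK, a membrane-anchored inhibitor of MMP9, MMP2 and MMP14, was the 1 gene tested of the 4 other inhibitors. It rose in KG1A, from 66.0 and 66.4 to 113 and 109 CPM (0.75 ± 0.04, edgeR adjusted p = 1.74e-16). In U937 it lay at 57.3 and 59.0 CPM in PBS and 55.1 and 51.0 CPM in dG (-0.13 ± 0.05, edgeR adjusted p = 0.0256), which no longer passed with DESeq2 size factors (adjusted p = 0.533).

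The proteases that remove MMP propeptides, and the plasminogen system that feeds them, were covered by 16 genes, 14 of them tested. The background in U937 was 32.4% of all genes higher and 31.5% lower. In U937, 11 rose and PRTN3, proteinase 3 of primary granules, fell by 1.02 on the log2 scale (standard error 0.04, edgeR adjusted p = 5.23e-21). PLAU, the urokinase that turns plasminogen into plasmin, lay at 223 and 231 CPM in PBS and at 1196 and 1176 CPM in dG (2.39 ± 0.04, edgeR adjusted p = 6.72e-35). Its receptor PLAUR rose by 1.41 ± 0.05 (edgeR adjusted p = 6.86e-24), from 39.2 and 40.8 to 109 and 103 CPM. The activator and its receptor rose in the same libraries in which MMP1 was higher, and a link between them was not tested. The median over the 14 was 0.61 in U937, where that of all genes tested was 0.00.

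In KG1A, where 29.6% of all genes were higher, 6 of the 14 rose: PLAU, PLAUR, SERPINE2, FURIN, PCSK6 and CTSG. PLAU went from 2.08 and 2.29 to 7.36 and 5.45 CPM (1.55 ± 0.15, edgeR adjusted p = 2.44e-11), and PLAUR from 8.97 and 9.20 to 22.8 and 23.8 CPM (1.35 ± 0.08). PCSK6, a furin-like convertase, rose by 2.22 ± 0.28 from 0.477 and 0.479 CPM. SERPINE2 and CTSG were called from 0 and 19 counts and from 9 and 64 counts. SERPINE2 lay at 0.355 CPM in KG1A in dG beside 63.2 CPM in U937 in PBS, and CTSG at 1.19 beside 498.9 CPM. The median was 0.64, or 1.35 over the 9 genes with more than 3 counts in a group, with genes at 0 set to the floor. The U937 effect minus the KG1A effect was 0.83 ± 0.17 for PLAU (edgeR adjusted p = 8.19e-05) and -2.61 ± 0.72 for PCSK6 (edgeR adjusted p = 0.00283).

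Surface proteins that dock MMPs or TIMPs, and their secreted partners, made a list of 14 genes, 9 of them tested. As background, 29.6% of all genes were higher and 19.6% lower in KG1A, and 32.4% and 31.5% in U937. In KG1A 7 rose and BSG fell, the inducer of MMP synthesis in neighbouring cells, by 0.13 on the log2 scale, a call lost without the second PBS or the second dG library of KG1A. In U937 6 rose. ITGB3, an integrin subunit, rose in KG1A from 2.56 and 2.26 to 26.3 and 24.6 CPM (3.41 ± 0.12, edgeR adjusted p = 1.97e-22) and held no read in U937. CD44, the hyaluronan receptor that docks MMP9, rose in KG1A from 613 and 616 to 1098 and 1105 CPM (0.84 ± 0.03), and in U937 by 0.32 ± 0.03. CD63, the tetraspanin that binds TIMP1, rose in U937 from 102.4 and 103.2 to 239 and 228 CPM (1.18 ± 0.04), and lay at 37.6 and 38.6 CPM in KG1A in PBS and 41.5 and 38.8 CPM in dG. CD82, a tetraspanin, rose in both, by 1.36 ± 0.06 in KG1A and 1.90 ± 0.07 in U937. ITGB1 also rose in both, by 0.64 ± 0.03 in KG1A and 0.86 ± 0.03 in U937. The medians were 0.70 in KG1A and 0.37 in U937, or 0.70 and 0.52 over the genes with more than 3 counts in a group.

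ADAM and ADAMTS proteases are metalloproteinases of a sister family, which shed surface proteins or trim matrix. Of 32 genes 20 were tested, and 10 rose in KG1A, while 8 rose and 2 fell in U937. Among all genes tested, 29.6% were higher and 19.6% lower in KG1A, and 32.4% and 31.5% in U937. ADAM10, the main sheddase, rose in KG1A from 324 and 312 to 489.5 and 502 CPM (0.64 ± 0.03, edgeR adjusted p = 8.8e-19), ADAM9 by 1.03 ± 0.06 and ADAMTS10 by 1.76 ± 0.09. ADAM10, ADAM9 and ADAMTS10 were also called higher in U937, by 0.50 ± 0.03, 1.06 ± 0.04 and 0.63 ± 0.17. In U937 ADAMDEC1, a protease of mature macrophages, went from 0.408 and 0.797 to 16.0 and 14.7 CPM (4.72 ± 0.19, edgeR adjusted p = 1.18e-21). ADAMTS7 rose by 1.18 ± 0.26 in U937, and was also called higher in KG1A, from 0 and 5 counts. ADAMTS9 fell in U937 from 17.0 and 14.3 to 5.86 and 7.03 CPM (-1.29 ± 0.12). The medians were 0.30 in KG1A and 0.04 in U937, or 0.36 and 0.54 over the genes with more than 3 counts in a group. Without the first KG1A PBS library 6 genes rose in KG1A.

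Matrix proteins that MMPs cut made a list of 19 genes, 13 of them tested. Over all genes, 32.4% were higher and 31.5% lower in U937, and 29.6% and 19.6% in KG1A. In U937 8 rose and COL5A2 fell, a call lost without the second U937 dG library. COL6A3, a chain of the beaded-filament collagen, went from 1.07 and 0.439 to 15.0 and 16.0 CPM (4.29 ± 0.18, edgeR adjusted p = 2.45e-21). COL6A1 rose by 2.68 ± 0.21 and COL1A1, a chain of the fibrillar collagen that MMP1 cuts, by 1.76 ± 0.20, from 1.26 and 1.36 to 4.57 and 4.22 CPM. The 8 fibroblast markers, which include COL1A1, summed to 1.66 to 1.91 CPM in U937 in PBS and to 7.29 to 7.47 CPM in dG, while DCN and LUM were at 0. In KG1A 6 rose and COL3A1 fell, by 1.20 on the log2 scale (standard error 0.19). Some of these rises rest on few reads: COL4A1 held 0 counts in PBS and 6 in dG, COL6A1 0 and 5, and COL6A3 2 and 15. SPARC, a collagen-binding protein, rose in KG1A from 26.9 and 26.2 to 61.8 and 60.0 CPM (1.20 ± 0.06) and ELN, elastin, by 0.53 ± 0.08. SPARC also rose in U937, by 1.91 ± 0.38 from 15 and 44 counts. Without the second KG1A PBS library, 3 of the list rose in KG1A. The medians were 0.39 in KG1A and 1.19 in U937, or 0.46 and 1.05 over the genes with more than 3 counts in a group.

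AP-1 and ETS factors, which are known to act on MMP promoters, made a list of 15 genes, all tested. In KG1A 10 rose, beside 29.6% of all genes higher and 19.6% lower. In U937 7 rose and 6 fell, beside 32.4% of all genes higher and 31.5% lower. ETV5 rose in KG1A from 15.0 and 17.3 to 42.7 and 40.1 CPM (1.35 ± 0.07, edgeR adjusted p = 1.01e-18) and fell in U937 from 60.6 and 60.1 to 24.9 and 25.2 CPM (-1.27 ± 0.06, edgeR adjusted p = 7.18e-20). FOSL1 rose in KG1A by 0.56 ± 0.15, a call that DESeq2 did not make (adjusted p = 0.0696), and fell in U937 by 2.23 on the log2 scale. ATF3 rose in U937 by 2.03 ± 0.14, from 2.42 and 3.07 to 10.6 and 11.6 CPM, and ETV4 fell there by 1.85 (standard error 0.11). JUNB rose in both lines, by 0.63 ± 0.08 in KG1A and 0.30 ± 0.06 in U937. The medians were 0.22 in KG1A and 0.12 in U937, and those of all genes tested were 0.04 and 0.00.

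**Figure D4:**
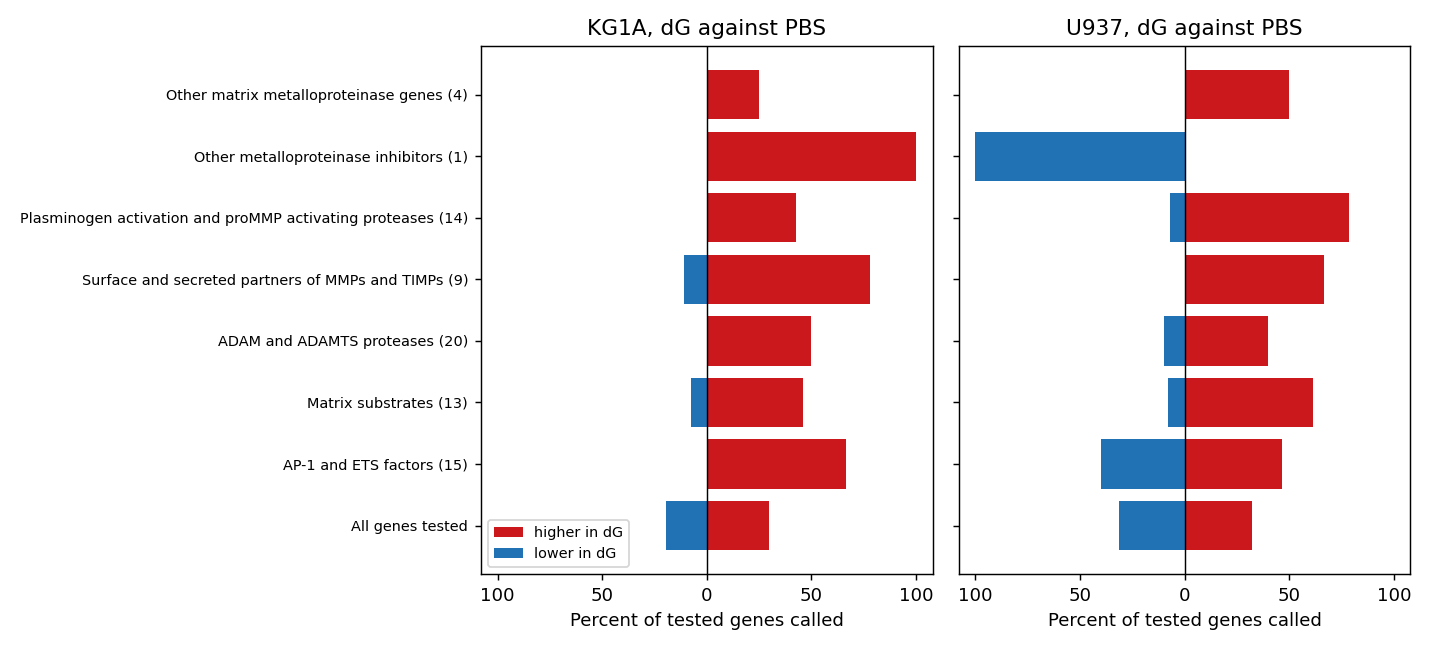
Percent of the tested genes of each list called higher (to the right) and lower (to the left) in dG, by line, at an adjusted p under 0.05 in edgeR, with the number tested in brackets and all genes tested as the last bar. The activator list reaches 11 of 14 genes higher in U937, beside 32.4% of all genes.

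The protein-coding genes whose profile over the 8 libraries was most like that of MMP1 were LYZ, C3, MS4A4A, PLPP3 and HLA-DRB5 (distances 2.43 to 2.88). Likeness was the Euclidean distance between log2 CPM centred on each gene's own mean. LYZ, the lysozyme of monocytes, went from 23.7 ± 1.42 to 222 ± 4.60 CPM (mean ± SD, n = 2) in U937, and C3, a complement component, from 15.3 ± 0.972 to 203 ± 3.67 CPM. HLA-DRB5 has near-identical copies, so its counts are uncertain. None of the 5 came near the MMP1 change in size, with log2 fold changes of 2.75 to 3.85 in U937. For TIMP1 the nearest were RIT1, ZBTB4, CMTM4, ACVR1 and YPEL5, at distances of 0.277 to 0.318. Each was higher in dG in both lines, with 0.57 to 0.75 in KG1A and 0.94 to 1.34 in U937 on the log2 scale.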

How the data were processed

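RNA of 8 libraries (2 lines, 2 treatments, 2 replicates each) was measured by sequencing. The deposited count table holds whole reads per gene for 57992 genes, and the submitters' processing notes name bcl2fastq 2.18.0.12, TopHat2, HTSeq 0.11.2 and hg38 without their roles. The deposited RPKM were checked against the counts and equal reads per kilobase of exon length per TMM-scaled library size. Strand setting, annotation release and the treatment of reads with several matches are not given in the sources used here. Of the gene identifiers, 57388 matched GENCODE 29, which gave shared exon bases and gene types.

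The test was the two-sided quasi-likelihood F test of edgeR 4.0.16 in R 4.3.3, run on counts scaled by TMM for the 18314 genes that filterByExpr kept. A single model gave each line and treatment its own mean over all libraries, with 4 residual degrees of freedom per gene. The biological coefficient of variation shared by all genes was 2.51%. The standard error of a log2 fold change was taken as its absolute value divided by the square root of F. It is approximate, and unreliable where a group held few or no reads. Benjamini-Hochberg adjustment ran over the whole set of genes, and calls were made below an adjusted p of 0.05. Every adjusted p given without a tool comes from this test, and DESeq2 1.42.0 and limma 3.58.1 served as alternatives, beside other scalings, filters, pseudocounts of 1 and 0.1 for RPKM and leaving out each library. Scripts were tested on simulated counts.

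The members and the gene lists were chosen with earlier results of these data known. Each further list names, per line, up to 3 called genes of the largest change with a mean of at least 1 CPM, or up to 2 of the highest level where none was called. Genes that overlap a member and the 5 genes nearest to MMP1 and to TIMP1 were also named, the latter without pseudogenes, clones, LINC and antisense names. CTSG, SERPINE2, PRTN3, FURIN, BSG, COL4A1 and COL5A2 fall outside this rule and were named after their values were seen. A gene that the rule names is not reported here. Fold changes against a group with no read use a floor of 3 counts per group.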

Additional observations from a re-analysis of the deposited data

Results flagged for a closer look

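For 15 genes that the rule named from the further lists, the effect of dG differed between the lines in edgeR's quasi-likelihood test of the difference (adjusted p under 0.05, 44.1% of all genes tested), given as the U937 effect minus the KG1A effect on the log2 scale. It was larger in U937 for MMP7 by 1.74, for PLAU by 0.83, for CD82 by 0.55, for CD63 by 1.11, for ITGB1 by 0.22 and for ATF3 by 1.84. It was lower in U937 for the inhibitor RECK (-0.87), the convertase PCSK6 (-2.61), CD44 (-0.52), ADAMTS10 (-1.13) and ADAM10 (-0.14). Among AP-1 and ETS factors it was lower for ETV5 (-2.62), JUNB (-0.33), FOSL1 (-2.80) and ETV4 (-3.96), the last from 3 counts in KG1A in PBS. With DESeq2 size factors the differences of ADAM10 (adjusted p = 0.522) and JUNB (adjusted p = 0.0603) no longer passed, and on log2(RPKM + 1) that of MMP7 was 0.19 (adjusted p = 0.072). Of the list genes named outside that rule, the difference also passed for FURIN (0.64), BSG (0.16), CTSG (-1.61) and COL5A2 (-1.25). It passed as well for SERPINE2 and COL4A1, whose KG1A PBS libraries held no read.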

How the results depend on the processing

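No tested member changed sign in U937 or in the KG1A changes of MMP25 and TIMP1 under any of the alternatives, apart from MMP25 in U937, which lay between -0.11 and 0.05. MMP1 in U937 ran from 5.36 to 5.63, and TIMP1 from 0.69 to 0.86 in KG1A and 1.08 to 1.25 in U937. Replicate deviations were hardly correlated between PBS and dG (-0.0501 in KG1A and 0.00799 in U937). As these deviations partly hold counting error, the correlations cannot decide whether the replicate numbers paired the samples. With a replicate block 8742 genes were called in KG1A, 11530 in U937, 7835 for the difference and 14157 between the lines. Without the block these were 8994, 11712, 8071 and 15065, and the counts of members called were the same.

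For the difference between the lines, limma on RPKM (pseudocount 1, pseudocount 0.1, and 1 with no filter) turned the sign of genes with few reads in a line: MMP9 from -1.52 to 1.95, 1.90 and 1.95, ADAMTS7 from -3.17 to 0.17, 0.64 and 0.17, ADAMTS9 from 1.01 to -0.59, -1.07 and -0.59, and COL6A1 from -1.67 to 0.80, 1.93 and 0.80. With pseudocount 1, ELN went from 1.98 to -0.36 and SPARC from 0.71 to -0.80, with or without the filter. In these 3 settings 5262, 4865 and 4950 genes were higher instead of 3230, and 8, 8 and 7 members instead of 2. DESeq2 called 3119 genes lower instead of 4841. The median of this difference over all genes moved by 0.12 to 0.13 under the RPKM settings, with no filter and without either U937 dG library.

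Counts of list genes in KG1A moved as follows. Higher ADAM genes went from 10 to 6 with DESeq2 and with unfiltered RPKM, higher matrix genes from 6 to 3 with the line fitted alone and in all 3 RPKM settings, and higher AP-1 and ETS factors from 10 to 6 with pseudocount 1, filtered or not. Lower ADAM genes went from 0 to 2 and 1 with pseudocounts 1 and 0.1, and lower activators from 0 to 1 with 0.1. The single other MMP gene called higher became 0 with no filter and with DESeq2, and the single lower partner 0 with unfiltered RPKM. In U937 the single lower inhibitor, RECK, became 0 with DESeq2 size factors, no filter, DESeq2 and all 3 RPKM settings. The cause was not tested.

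When each library was left out in turn, with the lone library of its group assumed to vary like the other groups, the KG1A counts ran from 6 to 11 for higher ADAM genes, 3 to 6 for higher matrix genes, 0 to 1 for lower AP-1 and ETS factors, 0 to 1 for other MMP genes and 0 to 1 for lower partners. In U937 they ran from 1 to 2 for other MMP genes, 0 to 1 for lower inhibitors and 0 to 2 for lower matrix genes. The members higher in the difference ran from 1 to 2, those higher in U937 from 7 to 8, and those higher in KG1A from 2 to 3, where MMP9 was gained without the first KG1A dG library (4.68, adjusted p = 0.0262), from 3 reads in 1 library. With 2 libraries per group, and at most 3 counts per KG1A group for 7 of the 10 members, KG1A values of these genes are limited by depth.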
